A study of Mus musculus with 32 samples.

Results

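Integrins are the receptors by which cells of the vessel wall hold on to their matrix. Each is a pair of one alpha and one beta chain; the beta chain binds talin and kindlin inside the cell, and the pair chosen decides which ligand is bound. In arteries, the beta1 chain pairs with alpha1 to bind collagen, with alpha6 and alpha7 to bind laminin, and with alpha5, alpha8, and alpha9 to bind fibronectin, nephronectin, and tenascin, whereas the alphav chain also pairs with beta3 and beta5 to bind vitronectin and latent TGF-beta. Smooth muscle cells use these receptors to sense stretch, and they are the cells that are lost from small arteries in CADASIL, a hereditary disease caused by NOTCH3 mutations.

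Here, 10 integrin subunit genes of the vessel wall were followed out of 55357 genes counted by RNA sequencing: Itgb1, Itgb3, Itgb5, Itgav, Itga5, Itga8, Itga9, Itga1, Itga6, and Itga7. They were chosen by symbol, as chains known from vascular cells, and each symbol matched 1 gene of the table. Earlier results of these data were known when they were chosen, so counts of subunits called are not independent of that choice. Brain arteries were dissected from 32 mice in 4 groups of 8. The first pair of groups, aged 3 months, was Notch3-/- mice, which lack the receptor in every cell, and Notch3+/+ mice. The second pair, aged 12 months, was TgNotch3R169C mice and WT mice. TgNotch3R169C mice carry a rat Notch3 gene with the R169C mutation on a large genomic transgene, inserted on the X chromosome, in addition to their own mouse Notch3. Both lines were on a C57BL/6 background, and controls were littermates of their own line. The groups thus shared tissue and background, but the pairs differed in age and in line. The comparisons within pairs ask what the loss of NOTCH3 and the mutant transgene change, and the comparison of the controls asks how the 2 cohorts differ.

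The libraries held 20289487 to 54481934 counts, and a member was covered by 202 counts or more in every library. Notch3 itself ranged from 13.6 to 18.7 CPM (counts scaled to the size of the library) in Notch3-/- mice against 66.0 to 97.4 in Notch3+/+ mice (log2 fold change -2.37, edgeR quasi-likelihood test, adjusted p = 1.39e-10), and from 108 to 223 CPM in TgNotch3R169C mice against 60.2 to 84.9 in WT mice (log2 fold change 1.31, adjusted p = 1.75e-05), as the labels say. Counts of Notch3 in the transgenic mice may include reads of the rat gene. All 8 smooth muscle markers and all 8 endothelial markers listed were above 1 CPM in each group. Both sexes were in every group: Xist was above 100 CPM in 4 of 8 libraries of each, replicates 5 to 8 in all 4 groups. Other tissue was also present: 7 libraries, of which 4 were WT mice aged 12 months, had more than 1000 CPM in 8 choroid plexus markers, 3 control libraries had more than 100 CPM of the pituitary hormone gene Prl, and the summed level of 8 neuron markers ranged from 179 to 1017 CPM. The 8 smooth muscle markers, which include Acta2 and Myh11, differed between groups. Their summed level was 2082 to 3680 CPM in Notch3+/+, 1425 to 2183 in Notch3-/-, 1146 to 1755 in WT, and 920 to 1479 in TgNotch3R169C mice. In dissected tissue, fewer cells of a type and less RNA per cell cannot be told apart.

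The order of the subunits by level was read as CPM per kb of exon, because long genes collect more reads. Itgb1, the shared partner of most alpha chains, was the most abundant member in all 32 libraries. It stood at 184 ± 14.9 CPM per kb in Notch3+/+ mice, 170 ± 14.3 in Notch3-/- mice, 139 ± 7.66 in WT mice, and 142 ± 15.4 in TgNotch3R169C mice (mean ± SD, n = 8 each). Itgb5, a partner of alphav, came next among the 10, at 63.0 ± 4.11, 61.9 ± 2.46, 59.0 ± 3.06, and 68.8 ± 5.28 CPM per kb in the same order of groups. Its range did not overlap with those of Itgb1 or of any alpha chain among the 10. Itgb3, another beta chain that pairs with alphav, was the lowest of the 10, between 1.97 ± 0.210 CPM per kb in WT mice and 2.64 ± 0.336 in Notch3-/- mice. Of the summed level per kb of these 3 beta chains, Itgb1 made up 73.7% ± 1.30 in Notch3+/+, 72.4% ± 1.85 in Notch3-/-, 69.5% ± 1.46 in WT, and 66.5% ± 1.96 in TgNotch3R169C mice. The mean share of Itgb5 was 25.2% (22.8% to 26.8%), 26.4% (24.3% to 29.8%), 29.5% (26.3% to 31.1%), and 32.4% (28.8% to 35.2%) in the same order, and that of Itgb3 was 0.984% ± 0.0909 in WT mice and at most 1.12% ± 0.107, in Notch3-/- mice.

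Among the alpha chains of the 10 subunits, the fibronectin receptor chain Itga5 led in every group. Alpha chains outside the 10 were not ranked. Itga5 ran from 12.5 ± 0.263 CPM per kb in WT mice to 15.8 ± 2.69 in Notch3-/- mice. Itgav followed, from 11.4 ± 0.684 in TgNotch3R169C mice to 13.0 ± 0.791 in Notch3+/+ mice. These neighbors were in this order in 7 or 8 of 8 libraries of each group, although their ranges overlapped. Itga9, Itga1, Itga8, and Itga6 held ranks 5 to 8 in an order that changed between groups, and most neighbors among them overlapped. Itga8, the nephronectin receptor chain of smooth muscle, ranked 5 in Notch3-/- mice at 9.22 ± 1.87 CPM per kb and ranked 8 in both groups aged 12 months, at 5.22 ± 0.669 in WT and 4.76 ± 0.345 in TgNotch3R169C mice. Itga7, a laminin receptor chain of muscle, was the lowest of the alpha chains ranked in all 4 groups (4.07 ± 0.317 to 5.15 ± 1.37 CPM per kb). Exon lengths were taken from another annotation than the counts, so that the order of close neighbors depends on it; Itga1 has 18.6 kb of annotated exon, the longest of the 10.

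**Figure D1:**
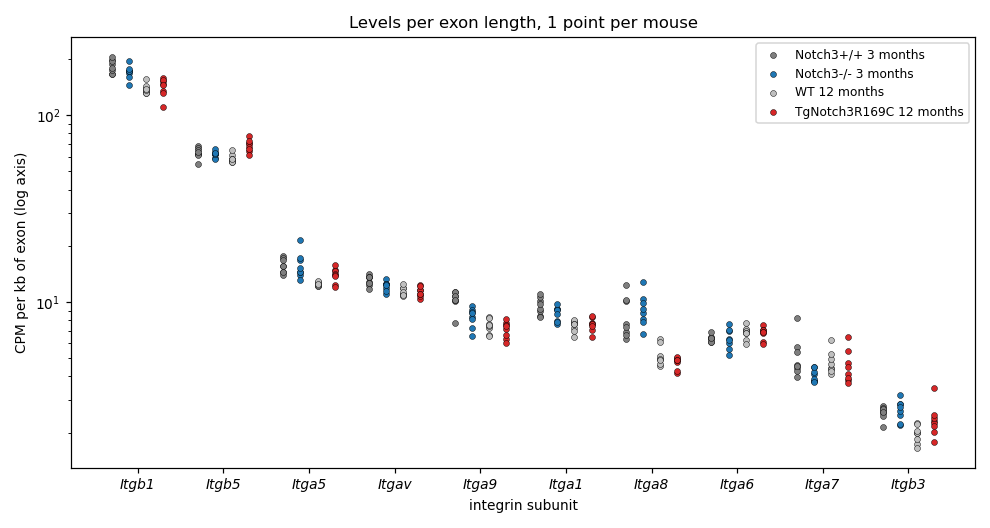
Level of each subunit per kb of exon (y axis, CPM per kb, log scale) in each of the 32 mice, colored by group. Itgb1 lay at 111 to 206 CPM per kb and Itgb5 at 54.7 to 77.8, above every alpha chain shown, and Itgb3 lay lowest.

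Loss of NOTCH3 was compared first. Of the 10 subunits, 0 passed the test at an adjusted p below 0.05 in Notch3-/- against Notch3+/+ mice (edgeR), where 0.649% of the 17714 genes tested passed. At an unadjusted p below 0.05 there were 4 subunits, all with lower values in Notch3-/- mice (Itga9, Itga7, Itgav, and Itga1), against 7.69% of all genes and 3.96% with lower values. DESeq2's Wald test called 1 subunit, Itga9, and limma voom 0. The median log2 fold change was -0.07 over the subunits and -0.0011 over all genes.

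Itga9, the chain that binds tenascin and the EDA segment of fibronectin, had the smallest p of the 10. It ranged from 50.7 to 73.7 CPM in Notch3-/- mice (median, 65.7) and from 59.1 to 87.5 in Notch3+/+ mice (median, 81.0). All 8 Notch3-/- mice lay below the mean of the controls, and the groups overlapped because replicate 3 of the Notch3+/+ mice, at 59.1 CPM, lay well under the other 7. The log2 fold change was -0.32 (SE 0.0826, 95% CI -0.49 to -0.14, edgeR adjusted p = 0.111), a level 19.8% lower. Without that control library it was -0.37 and passed the test (adjusted p = 0.0188), and DESeq2 gave -0.32 with an adjusted p of 0.0257. It also passed with the neuron score as a covariate (adjusted p = 0.012), with all 4 groups in 1 fit (adjusted p = 0.0330), with the replicate number as a block (adjusted p = 0.0214), and without the neuron-richest library of each group (adjusted p = 0.00954). Replicate 3 was also the Notch3+/+ library with the highest level of neuron markers (914 CPM). With the smooth muscle score as a covariate the value was -0.07 (adjusted p = 0.925). Itga9 thus passed in 5 of 15 alternative settings and in 1 of 16 fits that left out 1 library.

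Itga7 ranged from 30.4 to 36.5 CPM in Notch3-/- mice (median, 32.3) and from 32.2 to 66.5 in Notch3+/+ mice (median, 36.9). The 8 mutant mice lay in a narrow band below the mean of the controls, whose spread was carried by replicate 4, at 66.5 CPM. The log2 fold change was -0.35 (SE 0.123, 95% CI -0.61 to -0.09, edgeR adjusted p = 0.399), and -0.21 without that library. With the smooth muscle score as a covariate the sign turned, to 0.17 (adjusted p = 0.747).

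Itga8 was examined beside the smooth muscle markers, since it is a chain of that cell type. It ranged from 49.6 to 94.7 CPM in Notch3-/- mice (median, 66.0) and from 46.8 to 91.1 in Notch3+/+ mice (median, 55.2). The difference was 0.12 on the log2 scale (SE 0.151, 95% CI -0.20 to 0.44, edgeR adjusted p = 0.947). In the same mice, 5 of the 8 smooth muscle markers passed the test, all lower, and the median log2 fold change of the 8 was -0.63. Of the 8, 1 had a higher value (0.28), which was not called. When the mean log2 CPM of all 8 markers was added to the fit, Itga8 was called higher in Notch3-/- mice, by 0.79 (adjusted p = 0.000933). In that fit 23 genes of all those tested passed. The covariate is itself lower in the mutant, so the value is Itga8 relative to that set of markers and not a change in its level. The sums of the markers overlapped between the groups only from 2082 to 2183 CPM.

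**Figure D2:**
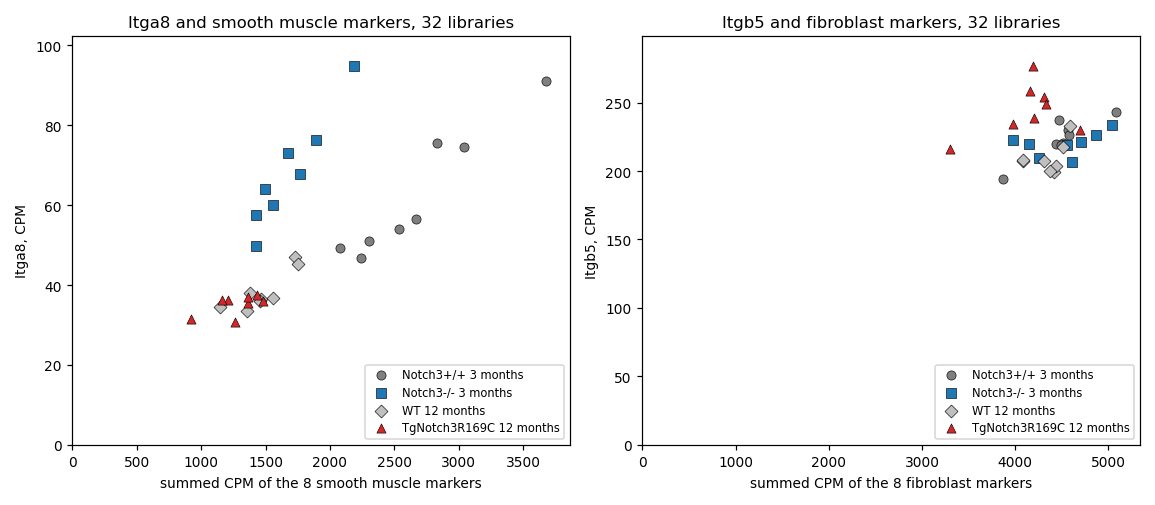
Itga8 against the summed level of 8 smooth muscle markers (left) and Itgb5 against that of 8 fibroblast markers (right), all in CPM, 1 point per mouse, with color and shape giving the group. On the left the Notch3-/- mice, at 1425 to 2183 CPM of markers, reach 94.7 CPM of Itga8; on the right the TgNotch3R169C mice reach 276 CPM of Itgb5 and the other groups 243 at most.

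The remaining subunits differed less. Itga1, a collagen receptor chain, had a log2 fold change of -0.15 (95% CI -0.29 to -0.01) and Itgav one of -0.10 (95% CI -0.20 to -0.01), each with 7 of 8 Notch3-/- mice below the mean of the controls. Itgb1 was at -0.12 (95% CI -0.25 to 0.01). For Itga5, Itga6, Itgb3, and Itgb5 the values lay between -0.03 and 0.04. Their intervals ran from -0.19 at the lowest to 0.20 at the highest, the widest being that of Itga5 (-0.19 to 0.19).

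**Figure D3:**
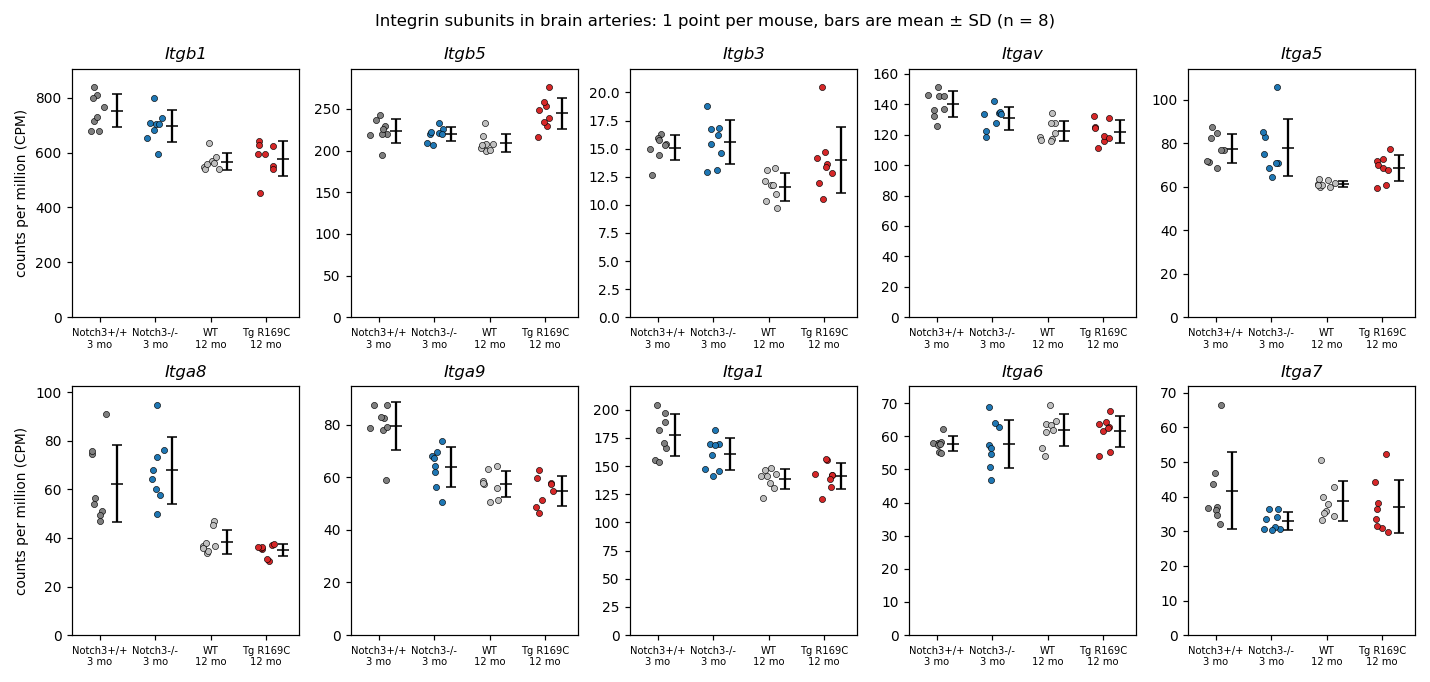
CPM of each subunit by group, 1 point per mouse, with bars for the mean ± SD (n = 8) and every y axis starting at 0. Itgb5 is highest in TgNotch3R169C mice (216 to 276 CPM), and Itgb1, Itga5, and Itga1 do not overlap between the control cohorts.

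The mutant transgene was compared next. In TgNotch3R169C against WT mice at 12 months, 0 of 10 subunits passed (edgeR), where 0.113% of 17731 genes passed. At an unadjusted p below 0.05 there were 3, Itgb5, Itga5, and Itgb3, all with higher values in TgNotch3R169C mice, against 7.27% of all genes and 4% with higher values. DESeq2 called 1, Itgb5, and limma voom 0. The median log2 fold change was 0.01 over the subunits and -0.0074 over all genes.

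Itgb5 ranged from 216 to 276 CPM in TgNotch3R169C mice (median, 244) and from 200 to 233 in WT mice (median, 207). All 8 transgenic mice lay above the mean of the WT mice and 6 lay above the highest of them. The log2 fold change was 0.22 (SE 0.0453, 95% CI 0.13 to 0.32, edgeR adjusted p = 0.0971), a level 16.8% higher. It passed with DESeq2 (0.23, adjusted p = 0.000429), with the neuron score as a covariate (0.26, adjusted p = 0.0332), and when all 4 groups shared 1 fit (0.22, adjusted p = 0.0236). Leaving out replicate 5 of the TgNotch3R169C mice (0.25, adjusted p = 0.0279) or replicate 5 of the WT mice (0.25, adjusted p = 0.0462) also brought it past the threshold; the first had the most neuron marker RNA of all libraries (1017 CPM) and both were rich in choroid plexus markers. Without all 7 libraries rich in choroid plexus markers the value was 0.28 (adjusted p = 0.145). Itgb5 thus passed in 3 of 15 alternative settings and in 2 of 16 fits that left out 1 library. The 8 fibroblast markers, which followed Itgb5 within groups, had a median log2 fold change of -0.04 in this comparison, and 0 of them were called; their part in the difference was not tested.

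Itga5 ranged from 59.3 to 77.6 CPM in TgNotch3R169C mice (median, 69.2) and from 60.0 to 63.5 in WT mice (median, 61.1). The WT mice formed a narrow band, and 6 transgenic mice lay above it and 1 below it. The log2 fold change was 0.16 (95% CI 0.06 to 0.26, edgeR adjusted p = 0.470). Itgb3 ranged from 10.6 to 20.5 CPM in TgNotch3R169C mice (median, 13.5) and from 9.74 to 13.2 in WT mice (median, 11.8), with 5 transgenic mice above all WT mice. Its log2 fold change of 0.27 (95% CI 0.03 to 0.50, adjusted p = 0.671) was 0.17 without replicate 7. Itgb3 is also a chain of the platelet fibrinogen receptor. Of 8 platelet markers, 6 were at or under 1 CPM in every group, all but Pf4 and Ppbp. The summed level of all 8 was 13.4 to 26.5 CPM in TgNotch3R169C and 18.6 to 33.4 in WT mice.

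All 8 TgNotch3R169C mice also lay below the WT mean for Itga8, at 30.7 to 37.5 CPM (median, 36.1) against 33.6 to 47.0 (median, 36.7). The medians were close, and the log2 fold change was -0.13 (95% CI -0.29 to 0.02, adjusted p = 0.721). For Itgb1, Itgav, Itga1, Itga6, Itga7, and Itga9 the values lay between -0.07 and 0.03. The intervals of all but Itga7 (-0.31 to 0.19) ran from -0.20 at the lowest to 0.16 at the highest.

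Whether the mutants differed from each other was tested as the difference between their changes, in 1 fit of all 4 groups. No shared control entered it, but the pairs also differ in age and line. Again 0 of 10 subunits passed (edgeR), where 0.35% of 18555 genes passed. At an unadjusted p below 0.05 there were 3 (Itgb5, Itga9, and Itga1), against 8.62% of all genes and 4.84% with values above 0. Values above 0 mean that the change was more positive in TgNotch3R169C than in Notch3-/- mice. Itgb5 had a change of 0.22 in TgNotch3R169C and -0.03 in Notch3-/- mice, a difference of 0.26 (95% CI 0.13 to 0.38, edgeR adjusted p = 0.0600). The adjusted p was 0.00728 with DESeq2 and 0.0714 with limma voom, and over the other alternatives it ran from 0.000899 to 0.165. It also passed when any 1 of 7 of the 32 libraries was left out: replicate 3 of the Notch3+/+ mice, replicate 1 or 2 of the Notch3-/- mice, replicate 5 of the WT mice, or replicate 3, 4, or 5 of the TgNotch3R169C mice (differences of 0.26 to 0.28). For Itga9 the difference was 0.25 (95% CI 0.03 to 0.48) and for Itga1 0.18 (95% CI 0.01 to 0.36). Itga7 had the largest value, 0.29, with a wide interval (95% CI -0.07 to 0.66), and Itgb3 was at 0.23 (95% CI -0.04 to 0.50). Itga8 was at -0.25 (95% CI -0.60 to 0.11, adjusted p = 0.718), and relative to the smooth muscle score it was -0.55 (adjusted p = 0.00988).

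**Figure D4:**
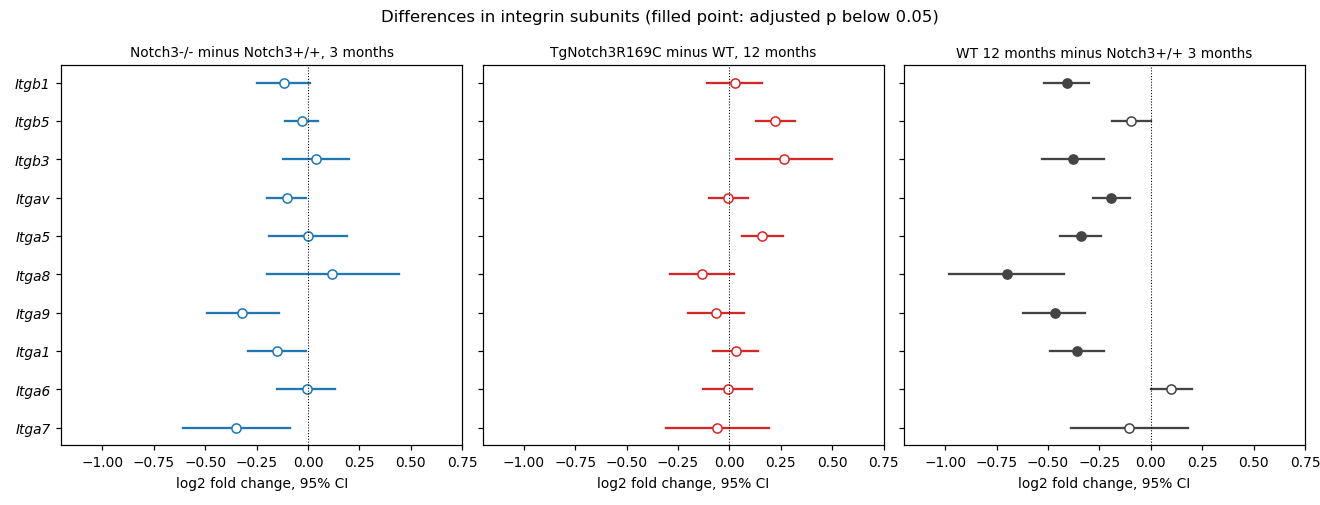
Log2 fold change of each subunit with its 95% CI in 3 comparisons, with a filled point where the adjusted p was below 0.05. No point is filled in the comparisons of mutant and control, and 7 are filled, all below 0, between the control cohorts.

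The largest differences were between the control cohorts. When WT mice at 12 months were set against Notch3+/+ mice at 3 months, 7 of 10 subunits passed (edgeR), all lower, where 7.92% of 17643 genes passed in either direction and 4.05% were lower. The median log2 fold change was -0.35 over the subunits and 0.0026 over all genes. Age, line, and cohort cannot be told apart here. Both mutant groups are compared only with controls of their own age.

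The smooth muscle chain Itga8 differed most, from 46.8 to 91.1 CPM at 3 months (median, 55.2) to 33.6 to 47.0 at 12 months (median, 36.7). The groups met only at their edges, with 7 of 8 WT mice below every Notch3+/+ mouse. The log2 fold change was -0.70 (SE 0.133, 95% CI -0.98 to -0.42, adjusted p = 0.00568), a level 38.4% lower. Itga9 was lower by 27.7% (log2 fold change -0.47, adjusted p = 0.00132), with 6 of 8 WT mice below every Notch3+/+ mouse.

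Itgb1 was at 679 to 839 CPM in Notch3+/+ mice (median, 748) and at 538 to 635 CPM in WT mice (median, 560). These ranges did not overlap (log2 fold change -0.41, 95% CI -0.52 to -0.30, adjusted p = 0.000420). In the same order, Itga5 was at 68.8 to 87.4 CPM (median, 77.1) and 60.0 to 63.5 (median, 61.1), with no overlap. Itga1 was at 154 to 204 CPM (median, 177) and 121 to 148 (median, 141), also with no overlap. Lower values with no overlap were seen in 3 of 10 subunits and in 0.924% of all genes. The log2 fold changes of Itga5 and Itga1 were -0.34 (adjusted p = 0.000710) and -0.36 (adjusted p = 0.00306). Itgb3 (-0.38, adjusted p = 0.00517) and Itgav (-0.19, adjusted p = 0.0143) were lower with overlap. Itgb3 did not pass without the libraries rich in choroid plexus markers (-0.34, adjusted p = 0.0723), and Itgav did not pass without the libraries with Prl (-0.19, adjusted p = 0.0582).

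The laminin receptor chains did not pass. Itga6 ranged from 54.9 to 62.3 CPM at 3 months and from 54.0 to 69.4 at 12 months (log2 fold change 0.10, 95% CI 0.00 to 0.20, adjusted p = 0.196), and Itga7 was at -0.11 (95% CI -0.39 to 0.18). Itgb5 was at -0.09 (95% CI -0.19 to 0.00, adjusted p = 0.191). In the same comparison all 8 smooth muscle markers were called lower (median log2 fold change -0.88), 1 of 8 endothelial markers was called lower (median, -0.17), 1 of 8 fibroblast markers was called lower (median, -0.03), and 7 of 8 choroid plexus markers were called higher. With the smooth muscle score as a covariate 0 of 10 subunits passed, as did 0 of all genes, with marker sums that did not overlap between the groups; Itga8 was then at 0.28 (adjusted p = 0.449). With the choroid plexus gene Ttr as a covariate 3 passed (Itga5, Itga9, and Itgb1), and without the libraries rich in choroid plexus markers Itga8 was at -0.68 (adjusted p = 0.0684). What part these markers had in the differences was not tested.

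The makeup of the dissected tissue varied between mice of a group too, and this was used to see which subunits moved with which cells. For each of 5 marker lists, the mean log2 CPM of its 8 genes was the score of a library, and the slope of each subunit on that score was fitted within groups over the 32 libraries. Itga8 followed the smooth muscle score almost 1 for 1, with a slope of 0.98 log2 units per log2 unit (95% CI 0.73 to 1.23, edgeR adjusted p = 8.70e-06). Only Itgb1 was also called, at 0.39 (95% CI 0.21 to 0.56, adjusted p = 0.0186), so that 2 of 10 subunits had a positive slope that passed, against 1.02% of genes. The slope of Itga8 was 1.24 in the libraries aged 3 months (adjusted p = 0.000334) and 0.56 in those aged 12 months (adjusted p = 0.0922), and 0.84 (adjusted p = 0.00312) without the 2 libraries farthest from the median score. That of Itgb1 did not pass without those 2 libraries (0.41, adjusted p = 0.0627).

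On the endothelial score, Itgb1 (0.67), Itga9 (0.72), and Itga1 (0.61) had positive slopes that passed, 3 of 10, against 2.4% of genes, and 0 without the 2 farthest libraries. On the fibroblast score, Itga9 (1.1), Itga5 (0.88), Itgb1 (0.80), and Itgb5 (0.69) had positive slopes that passed, 4 of 10, against 4.46% of genes. Of these, Itgb5 (95% CI 0.42 to 0.97, adjusted p = 0.000612) still passed without the 2 farthest libraries (0.60, adjusted p = 0.0275). On the macrophage and microglia score Itgb1 alone was called (0.46), 1 of 10, against 7.55% of genes with positive slopes that passed. On the neuron score the slopes called were negative, for Itga9 (-0.16), Itgb1 (-0.13), Itga5 (-0.12), and Itgb5 (-0.11), 4 of 10, against 6.6% of genes. The scores are not independent: within groups the fibroblast and neuron scores had r = -0.79, and the smooth muscle and endothelial scores r = 0.57, over 32 libraries. Itgav, Itga6, Itga7, and Itgb3 had slopes that passed on none of the 5 scores. On the smooth muscle score these were -0.05, -0.06, 0.49 (95% CI 0.09 to 0.89), and 0.29 (95% CI -0.04 to 0.63). On the fibroblast score Itga7 was at -1.11 (95% CI -2.12 to -0.11, edgeR adjusted p = 0.142), opposite in sign to the slopes called there.

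**Figure D5:**
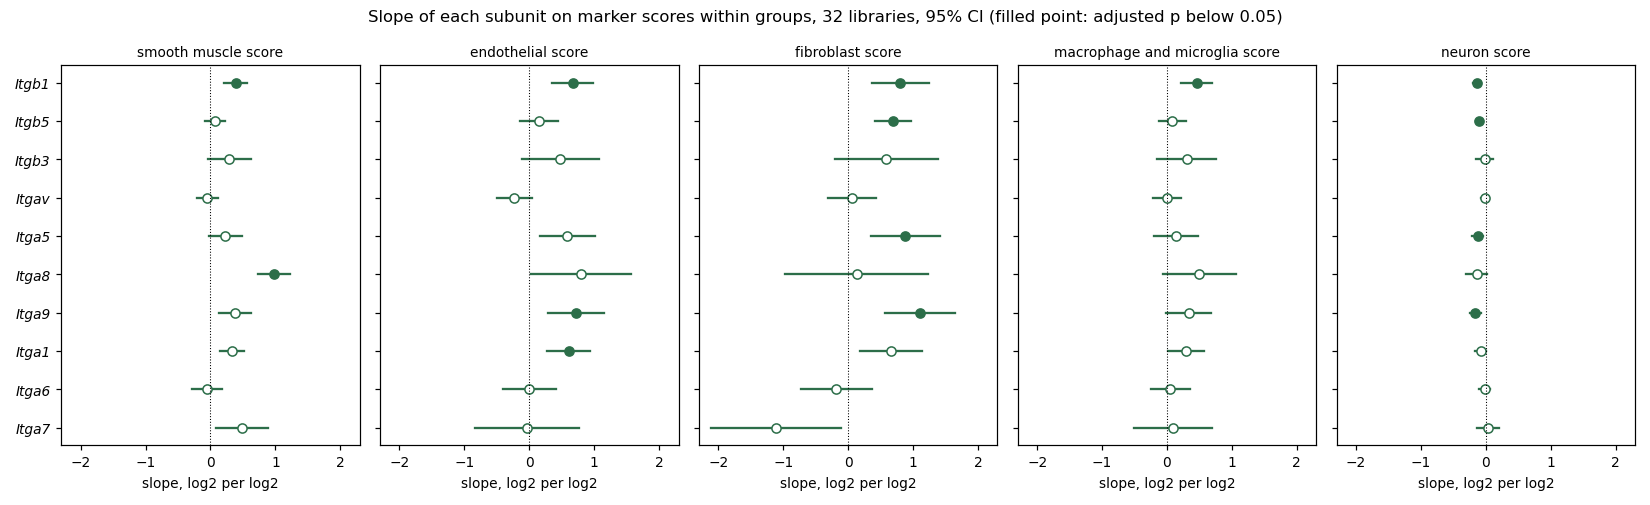
Slope of each subunit on 5 marker scores (x axis, log2 CPM of the subunit per log2 unit of score, with 95% CI), fitted within groups over 32 libraries; filled points passed at an adjusted p below 0.05. Itga8 stands at 0.98 on the smooth muscle score, and on the neuron score all 4 filled points lie below 0.

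Subunits that pair in the cell membrane did not all vary together. After group means were removed, Itgb1 had r = 0.71 with Itga1, 0.59 with Itga9, and 0.57 with Itga8 over the 32 libraries. It had r = 0.40 with Itga5, but -0.11 with Itga6 and 0.07 with Itga7. Alpha chains, which do not pair with each other, reached similar values (r = 0.62 for Itga7 with Itga8 and for Itga1 with Itga9). Itgav had r = 0.10 with Itgb1, -0.04 with Itgb3, and -0.05 with Itgb5. These values are descriptions of libraries that share tissue makeup and depth.

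The genes most like each subunit were read from the same residuals over 15648 genes. For Itga8 they were Mcam, Susd5, and Rasl12 (each r = 0.85), and for Itgb1 the actin-binding caldesmon Cald1 (0.89), Elf2 (0.87), and Ldlrad4 (0.85). Itga5 was most like Zyx (0.83), the focal adhesion protein zyxin, Tm4sf1 (0.82), and Fblim1 (0.80). Itga9 was most like talin 1, Tln1 (0.79), the laminin chain Lamc1 (0.77), and filamin C, Flnc (0.76), and Itga1 most like the actin-binding Svil (0.81), Aspn (0.79), and Colec12 (0.79). Itgb5 was most like the lysosomal enzymes Aga (0.75) and Hexa (0.73) and Crtap (0.72), which acts in collagen folding. Itga7 had Chadl (0.83), Mfap3l (0.80), and Olfr32 (0.79), and Itgav had Tmed7 (0.76), Sgpp1 (0.73), and Bmi1 (0.73). The likeness was weakest for Itgb3 (Ctla2a, 0.64, Fam129a, 0.63, and Tmem43, 0.63) and Itga6 (Rnf180, 0.61, Gca, 0.59, and Cysltr1, 0.59).

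The start regions of Itga8 and Itgb5 are shown because the results above turn on them: Itga8 had the steepest slope on the smooth muscle score, and Itgb5 had the smallest p of the 10 in TgNotch3R169C mice. Both are the 250 bases before the start given by RefSeq (GRCm38.p6), Itga8 on the minus strand at chr2:12301945-12302194 and Itgb5 on the plus strand at chr16:33829415-33829664, with GGGCGG or its reverse complement in capitals.
Itga8: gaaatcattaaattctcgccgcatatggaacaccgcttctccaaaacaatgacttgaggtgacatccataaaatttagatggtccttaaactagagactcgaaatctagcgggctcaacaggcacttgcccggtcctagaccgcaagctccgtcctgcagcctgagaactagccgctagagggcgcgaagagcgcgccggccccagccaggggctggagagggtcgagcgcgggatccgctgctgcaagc
Itgb5: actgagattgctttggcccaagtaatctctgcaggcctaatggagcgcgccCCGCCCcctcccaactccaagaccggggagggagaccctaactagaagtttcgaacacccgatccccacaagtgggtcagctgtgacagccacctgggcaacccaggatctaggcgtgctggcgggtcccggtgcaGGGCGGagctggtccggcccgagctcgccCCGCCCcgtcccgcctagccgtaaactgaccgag
GGGCGG, the core of the GC box bound by Sp1, occurs 3 times in the window of Itgb5 and not in that of Itga8; 3 of the 7 subunits in the promoter table hold it (Itgb5, Itga5, and Itgb1), as do 32.7% of 32851 promoters. TGGGAA, the core letters of sites for RBPJ, the DNA-binding partner of NOTCH receptors, was in 0 of the 7 windows and in 21.6% of all promoters. The CArG box, the site of serum response factor in smooth muscle genes, was in 0 of the 7 and in 1.47% of all promoters. The window of Itga9 lies inside the gene as GENCODE annotates it, not before its start. For Itga8 and Itga5, a stretch of bases just after the RefSeq start was found in no GENCODE transcript of the gene. These counts cover both strands and describe letters in a window of 250 bases.

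The partners of these receptors were examined as lists. Of 17 other integrin subunits, 14 were tested in Notch3-/- mice and 15 in TgNotch3R169C mice, and 0 were called in either (median log2 fold change 0.03 and -0.02). The smallest p values in Notch3-/- mice were those of Itgb4 (0.19), the laminin receptor chain of hemidesmosomes, Itga3 (-0.09), and Itga2 (-0.47). In TgNotch3R169C mice they were those of Itgb2l (-1.44), which was under 1 CPM in all libraries of both groups, and of the leukocyte chains Itgax (0.47) and Itgb7 (-0.26). Of 38 genes of the adhesion machinery inside the cell, 37 were tested, and 0 were called in Notch3-/- mice (median, -0.01), with the smallest p for the actin cross-linkers Flna (-0.32, adjusted p = 0.144) and Actn1 (-0.37, adjusted p = 0.203) and for the integrin inhibitor Sharpin (0.11, adjusted p = 0.244).

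In TgNotch3R169C mice 1 of the 37 rose, where 0.113% of all genes were called: Fblim1, which encodes migfilin, a link between filamin and kindlin at focal adhesions. It ranged from 60.6 to 87.1 CPM against 46.2 to 59.3 in WT mice (log2 fold change 0.49, 95% CI 0.32 to 0.66, edgeR adjusted p = 0.0189). By gene, alternative settings were read for the subunits and not for Fblim1 or the other genes of these lists. The focal adhesion kinase gene Ptk2 (0.08, adjusted p = 0.626) and Parvg (0.23, adjusted p = 0.679) followed. Fblim1 was at -0.10 (adjusted p = 0.957) in Notch3-/- mice, and the difference between the mutants was 0.60 (95% CI 0.25 to 0.94, adjusted p = 0.153).

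Among 40 matrix ligands of integrins, 1 fell in Notch3-/- mice, where 0.649% of all genes were called. This was Tgfb3, which encodes a TGF-beta isoform whose latent form binds alphav integrins. It ranged from 64.7 to 77.6 CPM against 81.4 to 115 in Notch3+/+ mice (log2 fold change -0.46, 95% CI -0.59 to -0.32, adjusted p = 0.000934). Mfge8, a ligand of alphav chains made by smooth muscle, was at -0.35 (adjusted p = 0.0548) and periostin, Postn, at -0.55 (adjusted p = 0.121). The median of the 40 was -0.08. In TgNotch3R169C mice 0 of 40 were called and 7 had an unadjusted p below 0.05, all higher, against 7.27% of all genes and 4% with higher values. They were led by Fbn1 (0.25, adjusted p = 0.133), Col4a1 (0.35, adjusted p = 0.146), and Col4a2 (0.28, adjusted p = 0.398); the median was 0.06. Tgfb3 was at 0.13 there, and its change differed between the mutants by 0.59 (95% CI 0.37 to 0.80, adjusted p = 0.00304). Between the control cohorts, 24 of 40 ligands and 8 of 37 genes of the machinery were lower at 12 months, where 4.05% of all genes were lower, and 1 gene of the machinery and 2 of 15 other integrin subunits were higher. All 8 smooth muscle markers were lower in that comparison too. With their score as a covariate 0 of all genes passed, but the marker sums did not overlap between the cohorts. That fit cannot separate the markers from the cohort, and their part in these differences was not tested.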

How the data were processed

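RNA from dissected brain arteries was sequenced from stranded poly(A) libraries. The deposited table holds raw read counts per gene that the authors made from their alignments; the submitters' processing notes name bcl2fastq 2.20.0.422, cutadapt 1.10, Bowtie2 2.2.8, STAR 2.5.3a, HTSeq 0.6.1p1, and mm39, and the annotation release and strand setting are not given in the sources used here. Symbols, exon lengths, and overlaps came from GENCODE vM21 (GRCm38), and 52081 of 55357 genes received a symbol. In that annotation 5.9% of the exon bases of Itgav and 5.0% of those of Itga8 overlap a gene on the other strand, and 3.7% of those of Itga1 a gene on the same strand.

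Counts were tested with edgeR 4.0.16 in R 4.3.3 (quasi-likelihood test, TMM, filterByExpr), within the groups compared, and p values were adjusted by the Benjamini-Hochberg method over all genes tested, with a threshold of 0.05. The study's own test, DESeq2 (1.42.0), and limma voom (limma 3.58.1) were alternatives, as were other normalizations and filters, covariates, and leaving out libraries. CPM used TMM library sizes. Total counts ran from 20289487 to 54481934, and their effect on precision was not tested. Tests were two-sided, scripts were tested on simulated data, and p values cover the spread between mice. The genes named were all 10 subunits, the 3 smallest p values and all calls of each list (for the cohort comparison, counts), and the 3 genes most like each subunit. Members and lists were chosen with earlier results of these data known.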

Additional observations from a re-analysis of the deposited data

Results flagged for a closer look

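In 5 of the 40 sets of 8 libraries (10 subunits in 4 groups), 1 library stood far from the other 7 by Dixon's test, which takes the gap to the next library as a ratio of the range; chance gives about 2.0 of 40. In Notch3+/+ mice these were replicate 3 for Itga9 (ratio 0.667), with 59.1 CPM against 78.0 in the next library, replicate 4 for Itga7 (ratio 0.576), with 66.5 against 46.7 CPM, and replicate 6 for Itga6 (ratio 0.535), with 62.3 against 58.3 CPM. In WT mice aged 12 months replicate 1 stood out for Itgb1 (ratio 0.541), with 635 against 582 CPM. In TgNotch3R169C mice replicate 7 stood out for Itgb3 (ratio 0.578), with 20.5 against 14.7 CPM. The first of these bears on a call, since Itga9 passed the test in Notch3-/- mice once replicate 3 was left out.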

How the results depend on the processing

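The number of subunits past the threshold changed from 0 to 1 in Notch3-/- mice with DESeq2, with the replicate block, with the smooth muscle or the neuron score as a covariate, with all 4 groups in 1 fit, and without the neuron-richest library of each group. It changed from 0 to 1 in TgNotch3R169C mice with DESeq2, the neuron score, and all 4 groups in 1 fit, and for the difference between the mutants with RLE normalization, DESeq2, the smooth muscle or neuron score, and without the choroid plexus-rich or the neuron-richest libraries. Leaving out single libraries gave 0 to 1 in each of these 3 comparisons and 7 to 7 between the control cohorts, where 0 passed with the smooth muscle score, 3 with Ttr, 5 without choroid plexus-rich libraries (Itga8 and Itgb3 lost), and 6 without the libraries with Prl (Itgav lost). Over all genes, DESeq2 called 278, 79, and 155 in place of 115, 20, and 65; in Notch3-/- mice the smooth muscle score gave 23 and the 4-group fit 174, in TgNotch3R169C mice the neuron score gave 10, and between cohorts Ttr gave 246 and the smooth muscle score 0 in place of 1398. The cause was not tested.

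Slopes called without the 2 farthest libraries, at 3 months, at 12 months, with the replicate block, and without choroid plexus-rich, Prl-containing, and neuron-richest libraries were 1, 2, 0, 1, 2, 3, and 2 for smooth muscle, 0, 0, 1, 3, 1, 3, and 0 for endothelium, 1, 0, 1, 3, 2, 5, and 1 for fibroblasts, 0, 0, 1, 1, 0, 1, and 1 for macrophages and microglia, and 1, 2, 0, 5, 2, 3, and 0 for neurons.

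Signs turned mostly for values near 0. With the smooth muscle score these were, in Notch3-/- mice, Itga1 (0.05), Itga7 (0.17), Itgb1 (0.07), and Itgb5 (0.01), and between cohorts Itga7 (0.77), Itga8 (0.28), and Itgb5 (0.01). With Ttr they were Itga1 (-0.01), Itgb1 (-0.01), and Itgav (0.01) in TgNotch3R169C mice and Itga7 (0.03) between cohorts. In Notch3-/- mice Itga6 was at 0.00 with no filter and without the libraries with Prl, and Itga5 at -0.01 with voom and the block. In TgNotch3R169C mice Itgav was at 0.00 with RLE and the neuron score and 0.01 without choroid plexus-rich libraries. For the difference between mutants Itga6 was at 0.00 with RLE, with DESeq2, and without choroid plexus-rich libraries, at -0.01 with no filter, and at -0.03 without the libraries with Prl. Leaving out single libraries gave, in Notch3-/- mice, -0.07 to 0.04 for Itga5 and -0.04 to 0.04 for Itga6, in TgNotch3R169C mice -0.03 to 0.02 for Itga6, -0.02 to 0.02 for Itgav, and -0.15 to 0.01 for Itga7, for the difference -0.04 to 0.04 for Itga6, and between cohorts -0.17 to 0.02 for Itga7.

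Nothing in the labels ties mice of the same replicate number, but by Xist they were of the same sex in all 4 groups. The numbers were not taken as pairs, since same-numbered deviations had r of -0.14 to 0.34 in the Notch3 pair, -0.25 to 0.42 in the transgenic pair, and -0.19 to 0.24 between cohorts, with 4, 4, and 3 of 8 above 0.1, and 3, 1, and 2 of 8 numbers were matched best by their own. With Xist as a covariate the counts of subunits called stayed at 0, 0, 0, and 7. The replicate block changed the calls over all genes in Notch3-/- mice from 115 to 97 and called 1 subunit, Itga9 (adjusted p = 0.0214), there.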

Other observations

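Other integrin subunits were also measured in these arteries, and those below were chosen after their values were seen. The collagen receptor chain Itga10 ranged from 92.8 to 153 CPM in Notch3+/+ mice, 102 to 153 in Notch3-/- mice, 109 to 140.3 in WT mice, and 98.0 to 134 in TgNotch3R169C mice (n = 8 each), and the laminin receptor chain Itga3 ranged from 93.0 to 128 CPM over all 32 libraries. The leukocyte chains Itgb2, Itgam, and Itgal were at 23.3 ± 4.27, 12.2 ± 1.64, and 7.13 ± 2.28 CPM in Notch3+/+ mice. Itgb8, a partner of alphav in the brain, ranged more widely in the groups with libraries rich in choroid plexus markers. It was at 68.3 to 90.9 CPM in Notch3+/+ mice, which had no library rich in those markers, and reached 211 CPM in Notch3-/-, 233 in WT, and 183 in TgNotch3R169C mice. The part of choroid plexus RNA in this was not tested.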
